A study of Rattus norvegicus with 28 samples.

Results

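The late chronic stage of spinal cord injury (SCI) was compared with the uninjured cord in 8 of the 28 microarrays of the series. T8 comprised the 4 arrays of rats killed 8 weeks after a contusion of 250 kdyn to the cord at the eighth thoracic vertebra, and T0 comprised 4 arrays of animals without a contusion. T0 is called sham in the labels and uninjured in the study's methods, and neither says whether they underwent laminectomy. All 8 animals were adult females, of the Sprague Dawley strain by the methods, and each array held the total RNA of 1 animal from a block of thoracic cord about 1.5 cm long, without dura mater, taken after perfusion with saline. In T8 that block contained the epicentre of the lesion and the spared tissue around it, so a value is an average over both. Neither group received neural progenitor cells. The methods give the immunosuppressant FK-506 (tacrolimus) in the care of all operated animals, with a start set by the day of transplantation. That leaves its schedule in T8 unstated. The methods also give injured controls an injection of cell-free medium and do not say whether T8 was among them. The week at which T0 animals were killed was not given in the sources used here. The other arrays, 4 each at 1, 2 and 4 weeks after injury (T1, T2 and T4) and 8 from transplanted animals, entered the estimate of spread. T1 and T4 were also used to test where T8 departed from earlier stages.

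A contusion kills neurons and oligodendrocytes at the epicentre within hours to days and opens the cord to blood-borne leukocytes. In the following weeks macrophages take up myelin debris, astrocytes form a border around the lesion, and fibroblasts deposit collagen within it. Schwann cells, the myelinating glia of peripheral nerve, can enter the lesion from the nerve roots and wrap axons there. The comparison with T0 asked which differences were present at the chronic stage, and the comparison with T1 which of them differed from the first week.

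Levels are log2 values after quantile normalization between arrays, and values for single arrays are given in the order of replicates 1 to 4. A level of 1 probe cannot be set against that of another probe. Between 77.4% and 78.7% of spots were well above background on the T0 arrays and between 79.0% and 82.7% on the T8 arrays, and no spot was saturated. The value table and the scanner outputs disagreed on the sample of T0 replicates 2 and 4 and T8 replicates 1 and 3. For these 4 samples the scanner output deposited under the sample had another rank order than its column of values, which matched the output deposited under another group. The columns of the value table carry their own sample names and were followed here. If each scanner output was instead taken for the sample under which it was deposited, 0 features were called between T8 and T0 (limma). At an unadjusted p under 0.05, 4961 differed. Of the 14098 features called in the value table, 13956 kept their direction. T0 replicates 1 and 3 and T8 replicates 2 and 4 were the same arrays in both assignments, so that count is not an independent check. The outputs deposited under T0 replicates 2 and 4 matched columns of injured animals. With T0 replicates 1 and 3 and T8 replicates 2 and 4 alone of these groups, on which both sources agree, 13314 features were called. Of the 14098 features called over all arrays, 11513 were called again there and 4 changed direction. These arrays are part of those behind the first calls, so that is not an independent check either. By the scan dates of the matched outputs, the agreeing arrays of T0 and T8 were scanned in 1 session and the disputed ones in another. Dispute and scan session therefore cannot be told apart.

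Of 35469 features, 14098 differed between T8 and T0 at an adjusted p under 0.05 (limma with Benjamini-Hochberg adjustment), or 39.7% of all features. Of these, 6461 were higher (18.2%) and 7637 lower (21.5%) in the injured cord, and the median change of all features was -0.04. Rises reached larger sizes than falls. At a change of 8-fold or more, 454 called features were higher and 53 lower, whereas at 2-fold or more the numbers were 3244 and 3294. The 4 values of T8 did not overlap the 4 values of T0 for 13698 features (38.6%). A further asymmetry lay at the detection limit, where 405 features were well above background on every T8 array and on no T0 array, and 78 showed the reverse.

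**Figure D1:**
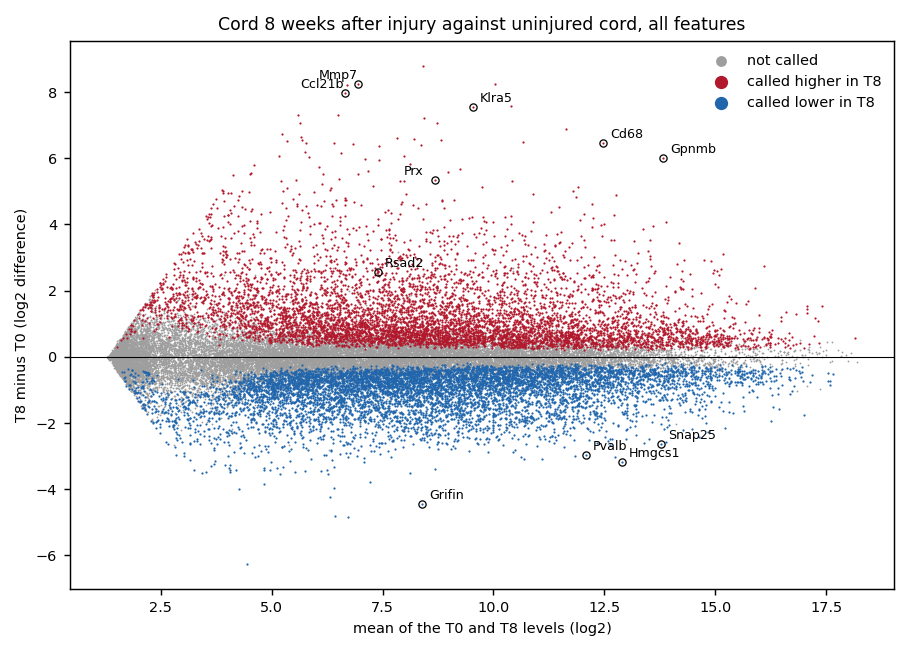
Change from T0 to T8 (vertical axis, log2 difference of group means) against the mean of both group levels (horizontal axis, log2) for all 35469 features, with the 6461 called higher in red, the 7637 called lower in blue and the rest in grey. Labelled genes are those discussed in the text, with rises reaching above 8 and the deepest labelled fall, Grifin, at -4.44.

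The largest rises were taken from named genes well above background on all 8 arrays, and 11 of the 12 are described. Fcrls, an Fc receptor-like gene of microglia that the reference table names Fcrl2, measured 6.91, 7.25, 6.73 and 5.50 in T0 and 13.42, 12.94, 14.84 and 15.52 in T8, with replicates 3 and 4 of T8 above replicates 1 and 2, and rose by 7.58 (SE 0.81, adjusted p = 9.37e-08). Klra5, a lectin-like receptor of the killer cell family, rose by 7.55 (SE 0.29, adjusted p = 2.75e-15) and the phospholipase B-like gene Plbd1 by 7.07 (SE 0.27, adjusted p = 2.75e-15). The interferon-induced membrane protein Ifitm1 (6.89), the macrophage lysosomal protein Cd68 (6.45) and the myeloid hexokinase Hk3 (6.40) followed in order of size. Ms4a4a, a membrane protein of macrophages, changed by 6.06, Gpnmb, a glycoprotein of lipid-laden macrophages, by 6.02, and the metalloprotease gene Adam33 by 5.82. Sostdc1, a secreted inhibitor of BMP and Wnt signals, rose by 5.68 (SE 0.66, adjusted p = 2.77e-07), and Cd8b, a chain of the cytotoxic T cell co-receptor, by 5.57 (SE 0.44, adjusted p = 7.78e-10). The groups did not overlap for any of these genes, which the selection required.

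Genes without a detectable signal in T0 gave only a lower bound of their rise. Mmp7, a small matrix metalloproteinase, was well above background on no T0 array and measured 11.46, 11.11, 11.11 and 10.61 in T8, at least 264-fold higher (adjusted p = 3.40e-06). Ccl21b, which the reference table names Ccl21, encodes a chemokine that draws naive lymphocytes and dendritic cells to lymph nodes. It was not well above background on any T0 array and measured 9.39, 10.44, 11.41 and 11.31 in T8, at least 220-fold higher (adjusted p = 2.77e-10). Bounds of at least 146-fold, 108-fold, 83.4-fold, 79.6-fold, 73.3-fold and 71.6-fold were found for Atp6v0d2, a proton pump subunit of osteoclasts and macrophages, the macrophage lectin Siglec1, the chemokine receptor Il8ra (now Cxcr1), the scavenger receptor Msr1, the inhibitory leukocyte receptor Lilrb4 and the protease inhibitor Serpinb10.

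The deepest falls among named genes well above background on all 8 arrays concerned genes of varied function. Grifin, a galectin-related gene best known from the lens, had levels of 9.25, 10.41, 11.25 and 11.54 in T0 and 5.59, 5.46, 7.77 and 5.88 in T8. It spread widely in both groups, and its change was -4.44 (SE 0.81, adjusted p = 9.72e-05). Tcfap2b, a transcription factor of inhibitory neurons in the dorsal horn (now Tfap2b), changed by -3.51 (SE 0.63, adjusted p = 7.91e-05). Hmgcs1, which makes the precursor of the mevalonate pathway of cholesterol synthesis, measured 14.42, 14.84, 14.32 and 14.35 in T0 and 11.10, 11.29, 11.60 and 11.24 in T8. Its values spanned 0.53 log2 units in T0 and 0.50 in T8, and its change was -3.17 (SE 0.20, adjusted p = 1.93e-11). The activity-dependent transcription factor Egr4 (-3.16), the fatty acid desaturase Scd1 (-3.09), the activity-dependent growth protein Nrn1 (-3.04), the G protein subunit Gng13 (-3.03) and the amino acid transporter Slc7a10 (-3.00) were also among the 12 deepest falls. The synaptic adhesion gene Slitrk6 changed by -2.97, the calcium buffer Pvalb by -2.97, the lysozyme-like Lyzl4 by -2.93 and the neuronal gap junction gene Gjd2 by -2.85.

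Some genes fell below detection, well above background on all T0 arrays and on no T8 array. Smpx, a small muscle protein gene, was at least 12.3-fold lower (adjusted p = 4.10e-06). The link protein gene Hapln1, which ties hyaluronan to proteoglycans in perineuronal nets, was at least 11.6-fold lower (adjusted p = 0.0012), and was not called in the arrays on which both sources agree. Bounds for Psgb1, Arpm1 (now Actrt3) and Car7, a carbonic anhydrase of neurons, were at least 9.3-fold, 8.82-fold and 7.84-fold. The transcription factors Esrrg, a marker of gamma motor neurons, and Neurod1 were at least 5.7-fold and 4.76-fold lower, the last without a call in the arrays on which both sources agree.

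**Figure D2:**
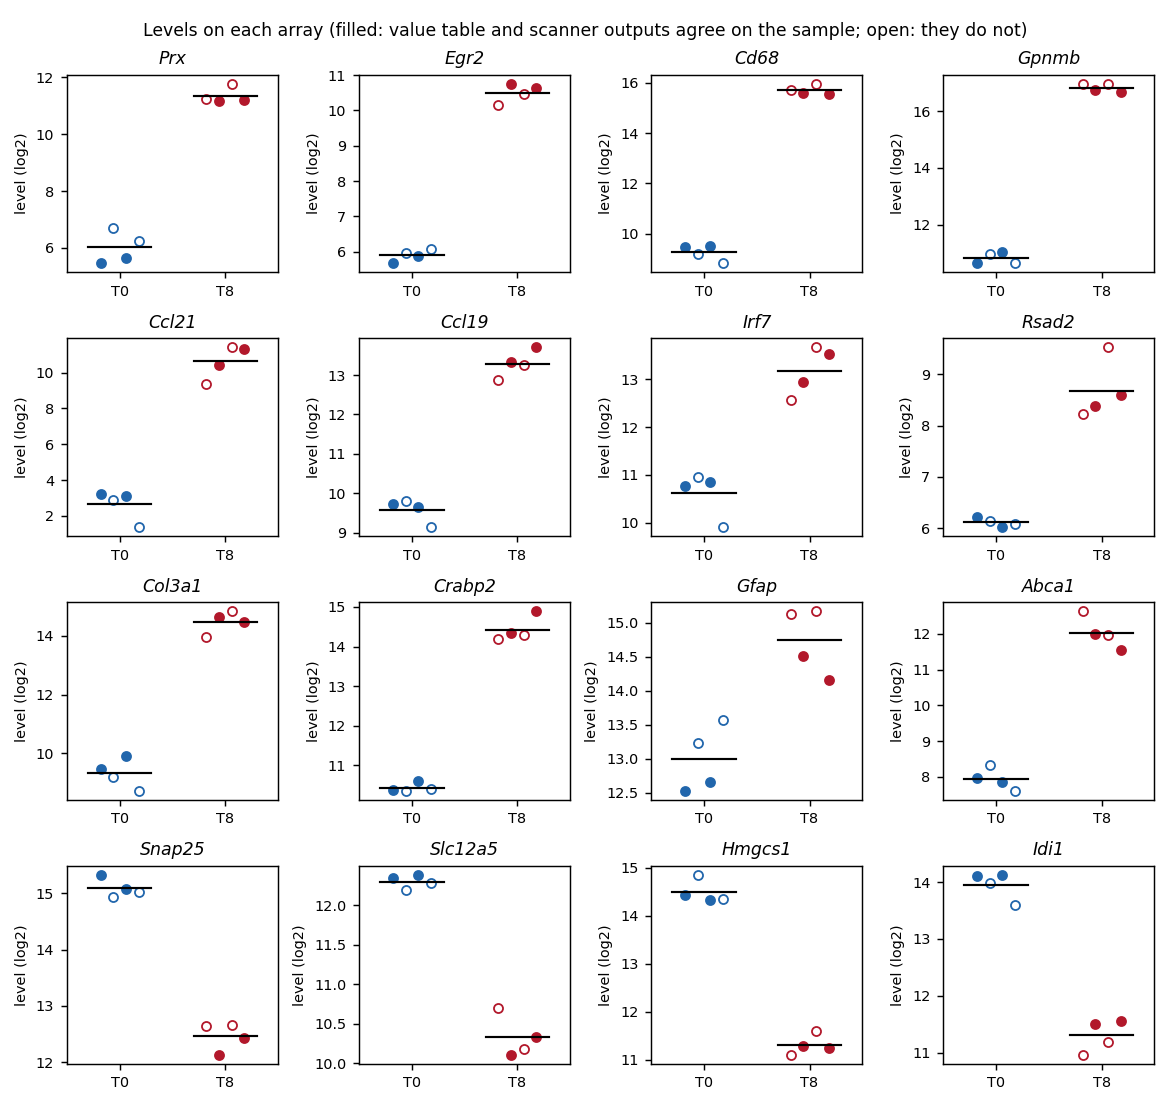
Level of 16 genes (vertical axes, log2, each panel with its own range) on each of the 4 T0 arrays and 4 T8 arrays, with a line at the group mean. Filled points are the arrays on which the value table and the scanner outputs agree and open points the others; the groups do not overlap in any panel. Ccl21 is the gene listed on the array as Ccl21b.

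General neuronal genes were lower throughout. All 14 general neuronal genes fell, against 21.5% of all features, with a median change of -1.60. Snap25, a core protein of synaptic vesicle release, had levels of 15.32, 14.93, 15.07 and 15.02 in T0 and 12.65, 12.13, 12.66 and 12.42 in T8 and changed by -2.62 (SE 0.40, adjusted p = 1.36e-05). The highest T8 array lay 2.27 log2 units below the lowest T0 array. The neurofilament genes Nefl, Nefm and Nefh changed by -1.41, -1.75 and -1.62, and the growth-associated Gap43 by -0.54 (adjusted p = 0.026), the smallest fall of the list. Gap43 was no longer called without T8 replicate 1 or 2 or T0 replicate 3, at -0.49, -0.52 and -0.53, or in the arrays on which both sources agree, at -0.58. In a tissue block, fewer neurons and less RNA per neuron cannot be told apart.

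Inhibitory neurons were represented by 10 genes, of which 9 were lower (median -2.09). Gad2, an enzyme of GABA synthesis, changed by -2.14 (SE 0.48, adjusted p = 8.98e-04), the glycine transporter Slc6a5 by -2.59 (SE 0.53, adjusted p = 3.48e-04) and the vesicular transporter Slc32a1, which loads both transmitters, by -2.17 (SE 0.42, adjusted p = 1.69e-04). The developmental transcription factor Pax2 was the exception at 0.30 (adjusted p = 0.29). Among 14 genes of excitatory neurons and spinal neuropeptides 12 were lower, with the glutamate transporter Slc17a6 at -2.59 and the neuropeptides Vip, Tac1 and Sst at -1.78, -1.64 and -1.31. One of the 12, Slc17a7, was not well above background on any array of either group. Calca, the CGRP precursor of primary afferents and motor neurons, was not called at 0.41 (adjusted p = 0.27). Of 9 motor neuron genes 6 were lower, among them the acetylcholine handling genes Slc18a3 (-1.17) and Slc5a7 (-1.44). Not called were Chat, the enzyme that makes acetylcholine, at -0.73 (adjusted p = 0.054), and Isl2 (adjusted p = 0.053). The member that rose, Mmp9 (2.71), was well above background on 1 T0 array and encodes a gelatinase that leukocytes also make.

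Receptors and channels of neurons followed. Of 23 glutamate receptor subunits 18 were lower and 0 higher (median -1.41), including all 4 AMPA subunits, and of 20 genes for GABA and glycine receptors and chloride transport 16 were lower (median -1.68). The chloride extruder Slc12a5, on which inhibition in mature neurons rests, measured 12.34, 12.19, 12.38 and 12.28 in T0 and 10.70, 10.11, 10.18 and 10.34 in T8, a change of -1.96 (SE 0.30, adjusted p = 1.40e-05). The groups were separated by 1.49 log2 units. Gabra2 was among the 4 not called, at 0.11 (adjusted p = 0.70). Of 29 voltage-gated channel subunits 23 were lower, led by Scn1a (-2.66), Kcna4 (-2.40) and Kcnc1 (-2.29). Of 26 monoamine receptors 12 were lower (46%) and 3 higher (11.5%), against 21.5% and 18.2% of all features. Most falls were of serotonin receptors, 9 of 13 lower, whereas of 8 adrenergic receptors 1 was lower and 1 higher. The largest rise of the 26 was Htr2b, a serotonin receptor found on microglia and fibroblasts, at 3.75 (SE 0.47, adjusted p = 9.68e-07), while Htr2c changed by -2.76.

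Central myelin genes were lower by a smaller amount. Of 19 genes of oligodendrocytes 14 were lower and 0 higher (median -0.74). Mog on the outer surface of the sheath had levels of 14.88, 14.99, 15.07 and 14.59 in T0 and 13.41, 13.82, 13.18 and 13.57 in T8, without overlap, and changed by -1.39 (SE 0.15, adjusted p = 8.83e-08). Ugt8, which makes the myelin lipid galactosylceramide, changed by -2.22 (SE 0.32, adjusted p = 6.03e-06). The lineage factor Olig2 was not called at -0.23 (adjusted p = 0.54). Among 7 precursor genes, Pdgfra (0.96) and Cspg4 (0.54), which fibroblasts and pericytes also express, were higher, Bcas1 (-0.69) was lower and the other 4 were not called. These shares, 28.6% higher and 14.3% lower, stand against 18.2% and 21.5% of all features.

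Peripheral myelin genes moved the other way. Of 13 Schwann cell genes 9 were higher and 2 lower, with a median of 1.60. Prx, which organizes the sheath of peripheral nerve, measured 5.47, 6.70, 5.64 and 6.25 in T0 and 11.24, 11.17, 11.78 and 11.21 in T8 and rose by 5.33 (SE 0.47, adjusted p = 4.04e-09). Egr2, the transcription factor that starts peripheral myelination, rose by 4.59 (SE 0.29, adjusted p = 1.75e-11), Pou3f1, which acts before it, by 1.92 (SE 0.22, adjusted p = 2.69e-07) and Pmp22, a compact myelin protein, by 1.58 (SE 0.12, adjusted p = 7.58e-10). The separation between groups was complete for all 4 genes. Egr2 is also listed among the immediate early genes, and its rise from T0 was already 3.7 in T1, against 1.9 for Prx. Sox10, which oligodendrocytes and Schwann cells share, was lower at -0.40, but not called in the arrays on which both sources agree, and Erbb3 (-0.28) and Cdh19 (0.47) were not called (adjusted p = 0.45 and 0.21). The summed level of the 13 genes ranged from 15.18 to 15.49 in T0 and from 16.20 to 16.53 in T8 on the log2 scale. Genes of sensory ganglia, which lie beside the cord, were higher in 1 (Avil, 0.97) and lower in 6 of 10 cases. Of all features 18.2% were higher and 21.5% lower. The summed level of the 10 ranged from 15.95 to 16.21 in T0 and from 14.56 to 14.94 in T8. That sum followed its brightest member, Prph, at 15.88 to 16.12 in T0 and 14.40 to 14.77 in T8. Prph is also a member of the motor neuron list. The part of sensory ganglia in the result was not tested.

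Astrocyte genes fell into those of identity, which were near T0, and those of reactivity, which were above it. Of 14 identity genes 3 were lower, 0 were higher and the median was -0.00. Aqp4, the water channel of astrocyte end feet, had levels of 13.69, 13.46, 13.21 and 13.15 in T0 and 13.38, 13.69, 13.26 and 13.27 in T8, and its change was 0.02 (adjusted p = 0.97). Those values overlapped. The potassium channel Kcnj10 was lower (-1.05 (SE 0.21, adjusted p = 3.37e-04)). Of 14 reactivity genes 13 were higher (median 1.93). Gfap, the intermediate filament of astrocytes, measured 12.53, 13.23, 12.66 and 13.57 in T0 and 15.13, 14.52, 15.17 and 14.16 in T8 and rose by 1.75 (SE 0.29, adjusted p = 3.09e-05), while Vim, which fibroblasts and macrophages also make, rose by 4.06 (SE 0.23, adjusted p = 2.33e-12). Serpina3n was the member not called at 1.60 (adjusted p = 0.15).

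Among 15 genes of ependymal cells, the ciliated lining of the central canal, 6 were higher (40%) and 1 lower (6.7%). Of all features 18.2% were higher and 21.5% lower. Foxj1, the regulator of motile cilia, rose by 1.19 (SE 0.16, adjusted p = 3.08e-06) and the chemerin gene Rarres2 by 2.21 (SE 0.26, adjusted p = 3.13e-07).

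**Figure D3:**
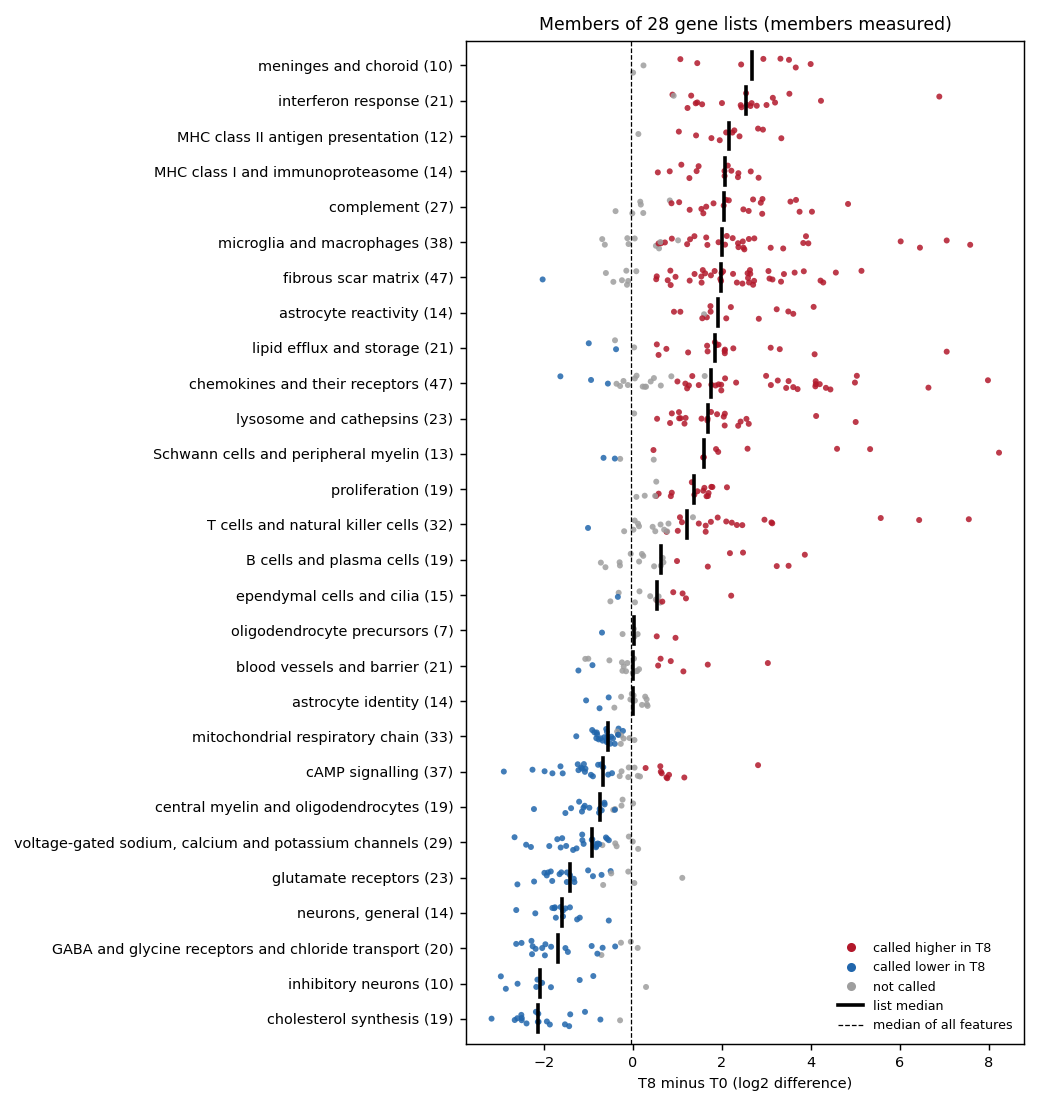
Change from T0 to T8 (horizontal axis, log2 difference) of every measured member of 28 gene lists, with members called higher in red, called lower in blue and not called in grey. A black bar marks the list median and the dashed line the median of all features; the lists run from cholesterol synthesis at the bottom, with a median of -2.12, to the meninges and choroid at the top, with 2.68.

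Most genes of microglia and macrophages were higher 8 weeks after injury. Of 38 genes of microglia and macrophages 29 were higher and 0 lower, against 18.2% of all features that were higher, and the median was 2.00. Cd68 had levels of 9.47, 9.20, 9.51 and 8.83 in T0 and 15.72, 15.59, 15.97 and 15.54 in T8, and Gpnmb of 10.64, 10.96, 11.02 and 10.65 and 16.95, 16.74, 16.98 and 16.67. Both were tight within groups, and their changes were 6.45 (SE 0.16, adjusted p = 3.00e-18) and 6.02 (SE 0.17, adjusted p = 3.29e-17). Genes of the lipid-handling and phagocytic state were higher in all 10 cases, among them Trem2 (2.61), a receptor for lipids, Lgals3 (2.73), Spp1 (2.11) and Igf1 (2.49). Genes of resting microglia rose in 3 of 8 cases, with Fcrls at 7.58. The purine receptor P2ry12 was at 0.52 (adjusted p = 0.20), without overlap between groups, and was called higher in the arrays on which both sources agree (0.44). Among the others, Tmem119 was at -0.12 (adjusted p = 0.92) and Sall1 at -0.10 (adjusted p = 0.52), whereas the fractalkine receptor Cx3cr1 was higher at 1.22. Of 10 genes assigned to macrophages 6 were higher and 4 were not called. The mannose receptor Mrc1 (3.83) and the lysozyme Lyz2 (3.94) were higher, while the arginase Arg1 was at -0.69 (adjusted p = 0.12).

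Lysosomal genes rose as a group, 22 of 23 (median 1.68). Ctsk, a collagen-degrading cathepsin, measured 9.16, 9.51, 9.51 and 9.03 in T0 and 14.61, 14.11, 14.57 and 13.95 in T8 and rose by 5.01 (SE 0.19, adjusted p = 2.75e-15), and Acp5, an acid phosphatase of osteoclasts and macrophages, rose by 4.12 (SE 0.34, adjusted p = 1.67e-09). The other lysosomal gene was not called.

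Complement genes were higher in 21 of 27 cases and lower in 0. All 7 members of the C1q and classical group rose, with C1qa at 2.48 (SE 0.16, adjusted p = 1.80e-11) and the serine proteases C1r and C1s at 2.91 and 2.91. The central component C3 was not called at 0.83 (adjusted p = 0.18). Its 4 T8 values, 14.92, 14.26, 15.24 and 14.93, overlapped those of T0, 13.48, 14.24, 13.93 and 14.38. Among regulators, the C1 inhibitor Serping1 rose by 4.03 (SE 0.15, adjusted p = 2.75e-15) and clusterin (Clu) by 1.54 (SE 0.13, adjusted p = 1.51e-09), and Cd59 and Cd46 were not called at 0.17 and 0.18. Of the components of the membrane attack complex, C6 was higher at 3.75 (SE 0.52, adjusted p = 3.34e-06) and C9 at 1.58 (SE 0.49, adjusted p = 0.012), the latter without a call in the arrays on which both sources agree, and C5 and C8a were not well above background on any array of either group.

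Antigen presentation and interferon genes were almost all higher. All 14 genes of MHC class I presentation and the immunoproteasome were higher (median 2.06), as were 11 of 12 genes of MHC class II presentation (median 2.17) and 20 of 21 interferon response genes (median 2.55). T8 replicate 3, on which the sources disagree, had the highest T8 level of 10 of the 12 class II genes. Without it 9 of 12 were higher and the median was 1.74. The peptide transporter Tap1 rose by 2.83 (SE 0.35, adjusted p = 8.13e-07), and the class II invariant chain Cd74 by 1.95 (SE 0.45, adjusted p = 0.0012), with T8 levels of 13.81, 13.29, 15.58 and 13.85. Ciita, the master regulator of class II genes, was well above background on no T0 array and all T8 arrays and was at least 6.88-fold higher (adjusted p = 8.81e-05). Irf7, a transcription factor that amplifies type I interferon, had levels of 10.78, 10.95, 10.85 and 9.92 in T0 and 12.56, 12.94, 13.66 and 13.52 in T8, and Rsad2 (viperin), an antiviral enzyme, of 6.22, 6.14, 6.02 and 6.08 and 8.22, 8.39, 9.53 and 8.60. All T8 values exceeded all T0 values for both, with changes of 2.55 (SE 0.45, adjusted p = 6.38e-05) and 2.57 (SE 0.52, adjusted p = 2.82e-04). Ifng, the type II interferon itself, was well above background on no T0 array and on 2 T8 arrays and was not called (0.14, adjusted p = 0.58).

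Because these genes moved together, their promoters were searched for the letters GAAA, any 2 bases and GAAA again, the core of the element bound by interferon regulatory factors, on both strands. The windows of 250 bases before the gene start come from RefSeq (GRCr8), and 14 of the 21 interferon response genes and 13 of the 14 MHC class I genes had one. The letters occurred in 9 of 14 and in 6 of 13 windows, against 3.41% of 33469 rat windows of the same length. A match is a description of the sequence and not a bound site. The windows of Rsad2 (chr6:48788121-48788370, minus strand) and Irf7 (chr1:205800024-205800273, minus strand) are shown as 2 examples, with the matched letters in capitals.
Rsad2: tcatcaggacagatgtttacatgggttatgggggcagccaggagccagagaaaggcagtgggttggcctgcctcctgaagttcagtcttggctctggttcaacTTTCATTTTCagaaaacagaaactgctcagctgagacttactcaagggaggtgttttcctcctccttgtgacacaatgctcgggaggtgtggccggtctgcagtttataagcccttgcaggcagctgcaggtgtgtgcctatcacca
Irf7: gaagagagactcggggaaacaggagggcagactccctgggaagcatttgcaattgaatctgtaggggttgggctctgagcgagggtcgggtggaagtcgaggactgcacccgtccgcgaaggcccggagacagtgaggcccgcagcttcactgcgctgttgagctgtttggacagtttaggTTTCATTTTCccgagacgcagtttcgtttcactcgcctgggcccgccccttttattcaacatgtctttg
Both matches read TTTCATTTTC, the same 10 letters on the opposite strand of the motif, and lay 147 and 69 bases before the gene start at their first base.

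Lymphocyte genes were raised unevenly. Of 19 T cell genes 14 were higher. Not called were Zap70 (-0.19), Foxp3 (0.45), Ctla4 (0.04), Icos (0.51) and Cd28, which was well above background on no array of either group. Cd8a was well above background on 1 T0 array and all T8 arrays and rose by 6.44 (SE 0.54, adjusted p = 2.22e-09), and Cd4 by 2.96 (SE 0.31, adjusted p = 5.29e-08). Cd3e, a chain of the T cell receptor complex, was well above background on no T0 array and 3 T8 arrays. Cd3g rose by 2.22 (SE 0.60, adjusted p = 0.0044), Cd3d by 1.01 and Lck by 0.76. Which cells carried these transcripts was not tested. Among 13 genes of cytotoxic and natural killer cells 5 were higher and 1, Gzma, was lower (-1.01 (SE 0.34, adjusted p = 0.02)). The call of Gzma was lost without T8 replicate 3, at -0.80, or T0 replicate 2, at -0.93, and in the arrays on which both sources agree, at -0.61. Meanwhile Gzmb (0.12) and Prf1 (0.62) were not called. Of 19 B cell genes 7 were higher, but Ms4a1 of B cells and Jchain of plasma cells were well above background on no array of either group, and Cd22 (3.87) and Blnk (2.48) are also expressed by microglia. Neutrophil and mast cell genes were called higher in 2 of 18 cases and lower in 0, against 18.2% and 21.5% of all features. Mpo was at background on all 8 arrays.

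Of 28 chemokines 21 were higher and 2 lower, and of 19 chemokine receptors 9 were higher and 1 lower. The chemokines that rose covered those that attract monocytes, such as Ccl2 (4.20 (SE 0.34, adjusted p = 9.03e-10)) and Ccl12, those induced by interferon, such as Cxcl10 (3.61 (SE 0.55, adjusted p = 1.17e-05)) and Cxcl11 (4.44, well above background on 1 T0 array), and those that organize lymphoid tissue, Ccl19 (3.70 (SE 0.38, adjusted p = 3.99e-08)), Ccl21b and Cxcl13 (3.50 (SE 0.66, adjusted p = 1.35e-04)). Cxcl13 was not called in the arrays on which both sources agree, at 2.67. Ccl19 measured 9.74, 9.80, 9.64 and 9.15 in T0 and 12.87, 13.32, 13.26 and 13.70 in T8. Ccr7, the receptor for Ccl19 and Ccl21, was well above background on no T0 array and on 2 T8 arrays, with overlapping levels of 1.61, 2.78, 3.28 and 3.77 in T0 and 4.72, 3.27, 5.09 and 3.70 in T8 (adjusted p = 0.027). It was not called without T8 replicate 1 or 3 or T0 replicate 1 or 2, where its change was 1.16, 1.04, 0.92 and 1.31. Cxcr5, the receptor for Cxcl13, was well above background on no array of either group. Cytokine ligands were called higher in 10 and lower in 2 of 23 cases, with Tgfb1 at 2.39 (SE 0.18, adjusted p = 3.50e-10) and Il1b at 1.05 (not called in the arrays on which both sources agree), and Tnf (0.37) and Il6 (0.50) not called. Their receptors and antagonists rose in 15 of 16 cases, among them Tnfrsf1b (2.95 (SE 0.19, adjusted p = 3.83e-11)) and Tgfbr2 (1.95).

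Genes of the fibrous scar were mostly higher. Of 47 genes of scar matrix and its cells 39 were higher and 1 lower (median 1.98). Col3a1, a fibrillar collagen, had levels of 9.48, 9.19, 9.92 and 8.73 in T0 and 13.96, 14.63, 14.83 and 14.46 in T8 and rose by 5.14 (SE 0.50, adjusted p = 1.87e-08). Col1a2 rose by 4.28 (SE 0.40, adjusted p = 1.00e-08), the proteoglycans Dcn and Lum by 3.64 and 3.84, and the collagen crosslinking enzyme Loxl1 by 4.22 (SE 0.35, adjusted p = 1.95e-09). The member that fell was Thy1 (-2.03), a surface protein that neurons also carry. Chondroitin sulfate proteoglycans and their partners, known as barriers to axon growth, were mixed, with 7 of 21 higher (33.3%) and 5 lower (23.8%). Of all features 18.2% were higher and 21.5% lower, so the share of falls was near that of all features. Tenascin C (Tnc) rose by 1.61 (SE 0.43, adjusted p = 0.0043), neurocan (Ncan) by 0.53 and Cspg4 by 0.54, whereas aggrecan (Acan), the core protein of perineuronal nets, changed by -1.81 (SE 0.32, adjusted p = 6.50e-05). Matrix proteases and their inhibitors rose in 20 of 28 cases, with Mmp12, a macrophage elastase, at 8.22 (SE 0.83, adjusted p = 3.99e-08), the urokinase receptor Plaur, well above background on 2 T0 arrays, at 5.38 (SE 0.21, adjusted p = 3.81e-15) and the inhibitor Timp1 at 3.49 (SE 0.17, adjusted p = 2.88e-13). Mmp12 measured 1.28, 2.34, 5.28 and 1.46 in T0, where 1 array was well above background, and 11.38, 10.73, 11.63 and 9.49 in T8.

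Of 21 vessel genes 6 were higher and 2 lower, so 8 were called, close to the 39.7% of all features, with a median of 0.00. The tight junction gene Cldn5 was at 0.10 (adjusted p = 0.69) and the glucose transporter Slc2a1 at 0.00 (adjusted p = 1.00). Icam1, which leukocytes use to cross vessel walls, rose by 3.03 (SE 0.14, adjusted p = 4.45e-14), and the lipid transporter Mfsd2a of the barrier changed by -1.22 (SE 0.27, adjusted p = 6.64e-04).

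Genes of the meninges and choroid plexus had the highest median of the 46 lists, 2.68, with 8 of 10 members higher. In the arrays on which both sources agree the median was 2.32, below the 2.37 of the interferon response list. The retinoid-binding Crabp2 measured 10.37, 10.35, 10.60 and 10.41 in T0 and 14.20, 14.35, 14.28 and 14.89 in T8 and rose by 4.00 (SE 0.45, adjusted p = 1.96e-07). The GABA transporter Slc6a13 rose by 3.66 (SE 0.45, adjusted p = 6.21e-07), the retinoic acid enzyme Aldh1a2 by 3.51 (SE 0.34, adjusted p = 2.27e-08), the growth factor Igf2 by 2.93 (SE 0.36, adjusted p = 7.46e-07), its binding protein Igfbp2 by 3.32 and the prostaglandin D synthase Ptgds by 1.45 (SE 0.21, adjusted p = 5.75e-06). These 6 genes are expressed by cells of the leptomeninges. The choroid plexus marker Ttr measured 2.84, 3.04, 2.92 and 2.96 in T8 and was not called (0.24, adjusted p = 0.56). The dura was removed from the blocks by the labels, and how much of the inner meninges remained was not given in the sources used here, so its part in the result was not tested.

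RNA of the cholesterol synthesis enzymes was lower at nearly every step. Of 19 enzymes 18 were lower and 0 higher (median -2.12), against 21.5% of all features that were lower. Idi1, which isomerizes the 5-carbon building block of sterols, measured 14.11, 13.98, 14.12 and 13.60 in T0 and 10.96, 11.51, 11.18 and 11.55 in T8, a change of -2.65 (SE 0.19, adjusted p = 9.66e-11). The groups were apart by 2.05 log2 units. Squalene epoxidase (Sqle) changed by -2.50 (SE 0.12, adjusted p = 8.71e-14), whereas Dhcr7 was the enzyme not called at -0.29 (adjusted p = 0.32). The sterol sensor partner Insig1, which shares sterol control with these enzymes, was lower (-2.36 (SE 0.24, adjusted p = 3.75e-08)), and the ubiquitin ligase Mylip, which sterols induce, was higher at 1.59 (SE 0.28, adjusted p = 6.08e-05).

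Promoter windows of 250 bases were available for 14 of the 19 enzymes. They were searched on both strands for CCAAT, the letters bound by the factor NF-Y, and for CACCCCAC, part of a sterol regulatory element. CCAAT occurred in 12 of 14 windows, against 34% of all windows, and CACCCCAC in 1 of 14, that of Ebp, against 2.32%. The windows of Hmgcs1 (chr2:53382054-53382303, plus strand) and Idi1 (chr17:66547525-66547774, minus strand), which fell most among the enzymes with a window, are shown with CCAAT or its reverse complement in capitals.
Hmgcs1: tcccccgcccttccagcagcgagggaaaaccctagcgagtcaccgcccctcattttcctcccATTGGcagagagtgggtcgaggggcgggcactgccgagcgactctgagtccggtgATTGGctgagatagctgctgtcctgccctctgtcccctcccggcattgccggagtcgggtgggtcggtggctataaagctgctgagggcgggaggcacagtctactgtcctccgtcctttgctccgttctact
Idi1: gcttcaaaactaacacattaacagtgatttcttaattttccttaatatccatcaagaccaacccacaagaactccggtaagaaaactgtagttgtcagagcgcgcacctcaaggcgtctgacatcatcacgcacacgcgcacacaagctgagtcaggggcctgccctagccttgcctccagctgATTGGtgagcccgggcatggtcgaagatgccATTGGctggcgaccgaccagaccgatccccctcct
Each window held 2 matches, read as ATTGG in this orientation.

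Genes of lipid efflux and storage ran opposite to those of synthesis, with 17 of 21 higher and 2 lower (median 1.84). The cholesterol exporter Abca1 had levels of 7.96, 8.35, 7.87 and 7.61 in T0 and 12.63, 11.99, 11.96 and 11.55 in T8 and rose by 4.09 (SE 0.33, adjusted p = 1.32e-09). Ch25h, which makes an oxysterol, rose by 3.30 (SE 0.24, adjusted p = 1.68e-10), the sterol-sensing receptor Nr1h3 by 1.84 (SE 0.25, adjusted p = 1.95e-06) and the esterifying enzyme Soat1 by 2.06. The neuronal cholesterol hydroxylase Cyp46a1 was lower at -0.99 (SE 0.20, adjusted p = 2.80e-04).

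Of 37 genes of cAMP signalling, the pathway examined by the study, 9 were higher (24%) and 20 lower (54%), with a median of -0.66. Of all features 18.2% were higher and 21.5% lower. Rapgef4, which encodes the cAMP sensor EPAC2 and is listed on the array under a transcript identifier, measured 8.42, 8.12, 7.95 and 7.97 in T0 and 5.23, 5.29, 5.37 and 4.98 in T8. It was lower on every T8 array, with a change of -2.90 (SE 0.27, adjusted p = 1.15e-08). Its paralogue Rapgef3 (EPAC1) was higher at 0.76 (SE 0.21, adjusted p = 0.0045). Adenylate cyclases of neurons such as Adcy2 (-1.16) and Adcy8 (-1.08) were lower and Adcy4 higher at 2.82 (SE 0.43, adjusted p = 1.07e-05). The targets Bdnf (-1.81 (SE 0.32, adjusted p = 5.95e-05)) and Camk4 (-2.25 (SE 0.33, adjusted p = 6.94e-06)) were lower, and Creb1 was not called at 0.16 (adjusted p = 0.31). Of 23 neurotrophic factors and receptors 9 were higher (39.1%) and 4 lower (17.4%), against 18.2% and 21.5% of all features. Igf1 and Igf2 were the largest rises among the ligands and Gfra3 (2.58 (SE 0.31, adjusted p = 3.91e-07)) and Ngfr (1.87) among the receptors. Of 14 genes tied to axon growth 6 were higher and 4 lower. Among these, Atf3 rose by 4.08 (SE 0.23, adjusted p = 3.19e-12) and Gadd45a by 1.63, while the structural Stmn2 (-1.76) and Tubb3 (-1.25) were lower. Inhibitors of growth were called higher in 4 and lower in 7 of 21 cases, against 18.2% and 21.5% of all features. Higher were Ngfr, Tnfrsf19 (0.94), Sema3c (0.87) and Sema3a (0.84). The 7 lower included the myelin proteins Rtn4 (-0.67) and Omg (-1.16).

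Genes of the respiratory chain were lower in 26 of 33 cases and higher in 0, by small amounts (median -0.57). The deepest was Ndufa8 at -1.27 (SE 0.26, adjusted p = 3.26e-04). Of 18 genes of iron and haem handling (median 0.38), 9 were higher (50%) and 3 lower (16.7%), against 18.2% and 21.5% of all features. Among them, the haem-degrading Hmox1 rose by 2.40 (SE 0.27, adjusted p = 1.84e-07), the ferric reductase Cybrd1 by 2.44 (SE 0.18, adjusted p = 2.23e-10) and ferritin light chain Ftl1 by 1.34. The transferrin receptor Tfrc was lower at -1.30 (SE 0.18, adjusted p = 2.36e-06). Activity and stress genes divided, with 11 of 18 immediate early genes higher, Egr2 (4.59) the most, and 2 lower (11.1%, against 21.5% of all features). Arc, which neurons make when active, was lower at -2.76 (SE 0.28, adjusted p = 4.71e-08) beside Egr4, while Junb rose by 2.50 (SE 0.26, adjusted p = 4.52e-08) and Fos by 1.43. Of 28 genes of pain and purinergic signalling 8 were higher (28.6%) and 11 lower (39.3%), against 18.2% and 21.5% of all features. The substance P receptor Tacr1 (-1.90 (SE 0.46, adjusted p = 0.0019)) was lower, and the microglial purine receptors P2rx4 (1.50 (SE 0.29, adjusted p = 2.01e-04)) and P2rx7 (1.12) were higher. Red blood cell and skeletal muscle genes are read against the 18.2% of all features that were higher and the 21.5% that were lower. Genes of red blood cells were called higher in 1 and lower in 1 of 6 cases, with Hbb at -0.24 (adjusted p = 0.70). Skeletal muscle genes were higher in 3 and lower in 5 of 15 cases, and the fast myosin Myh4 was well above background on no array. Of 7 adipose genes Cfd (4.84 (SE 0.18, adjusted p = 2.75e-15)), a complement protease, and the fatty acid carrier Fabp4 (at least 37.2-fold), which macrophages also make, were higher, and Adipoq and Plin1 were well above background on no array.

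Direct tests against T1 asked which features set the chronic cord apart from the cord 1 week after injury. Of 35469 features 3501 differed (9.87%; limma), 1933 higher (5.45%) and 1568 lower (4.42%) in T8. With scaling to the 75th percentile in place of quantile normalization 4047 were called, of which 34.1% were lower instead of 44.8%, as the median of all features moved to 0.15 above 0. The sources agree on T8 replicates 2 and 4 and T1 replicate 1. With these alone of the 2 groups, T1 is a single array, and the spread comes from the other groups, which it is assumed to share. In that fit 1363 features were called, 1005 of the 3501 among them, and 3500 had the same direction. With each scanner output taken for its own deposited sample, 0 features were called (638 at an unadjusted p under 0.05), and 645 of the 3501 took the opposite direction, among them Top2a, Lyz2, Igf1, Trem2 and Cd300le of the genes named next.

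Peripheral myelin genes were higher in T8 than in T1. Prx averaged 7.94 ± 1.05 (SD, n = 4) in T1 and 11.35 ± 0.29 in T8, a difference of 3.41 (SE 0.47, adjusted p = 2.20e-05), and Pmp22 differed by 1.17 (SE 0.12, adjusted p = 8.75e-07). Of 13 Schwann cell genes 8 were higher than in T1 and 0 lower. Meningeal genes were also higher, with 6 of 10 higher and 0 lower. Ptgds averaged 16.35 ± 0.22 in T0, 15.04 ± 0.30 in T1 and 17.80 ± 0.13 in T8, so it lay below T0 at 1 week and above it at 8 weeks (2.76 (SE 0.21, adjusted p = 1.35e-08) between T1 and T8). Cdh1, the epithelial cadherin, which arachnoid cells also make, averaged 8.93 ± 1.61 in T1 and 12.80 ± 0.35 in T8 (3.87 (SE 0.62, adjusted p = 1.48e-04)). The sodium-proton exchanger Slc9a2 differed by 4.05 (SE 0.32, adjusted p = 2.22e-08) and the cartilage matrix gene Lect1, now Cnmd, by 4.68 (SE 0.71, adjusted p = 7.94e-05). The protease inhibitor Serpinb10 (3.56), the calmodulin-like Calml4 (3.50) and the elastase-family gene Cela3b (3.30) completed the largest rises.

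Astrocyte and ependymal genes were higher in T8 than in T1. Of 14 astrocyte identity genes 9 were higher and 0 lower, and their median change from T0 was -0.72 in T1 against -0.00 in T8. The connexin Gjb6 averaged 14.26 ± 0.20, 11.67 ± 0.81 and 13.85 ± 0.24 in T0, T1 and T8 (2.17 (SE 0.29, adjusted p = 1.49e-05) between the last pair). Of 15 ependymal genes 8 were higher in T8, with Foxj1 at 1.22 (SE 0.16, adjusted p = 1.74e-05). Complement moved both ways, with 7 of 27 genes higher and 5 lower. Clu (1.56 (SE 0.13, adjusted p = 2.86e-08)) and Serping1 (1.29) were higher and the receptor C5ar1 (-2.45 (SE 0.21, adjusted p = 6.53e-08)) and properdin Cfp (-2.07) lower.

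**Figure D4:**
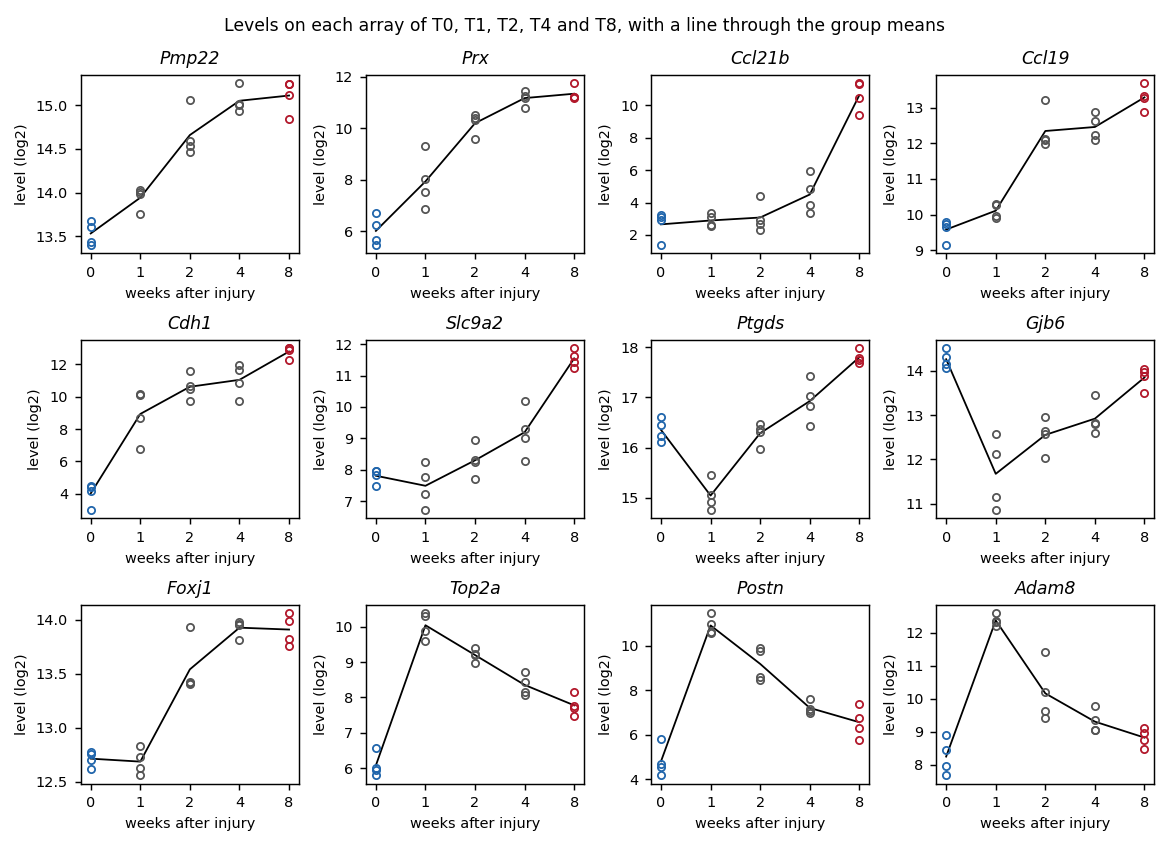
Level of 12 genes (vertical axes, log2, each panel with its own range) on each array of T0, T1, T2, T4 and T8 (horizontal axis, weeks after injury, 0 for T0, categories not to scale), with a line through the group means. Prx, Cdh1, Ptgds, Slc9a2 and Gjb6 are higher in T8 than in T1, Ccl21b has its highest group mean in T8, and Top2a, Postn and Adam8 are lower in T8 than in T1.

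Proliferation genes lay between T0 and T1. Of 19 proliferation genes 15 were higher in T8 than in T0, with a median of 1.38, and 16 were lower than in T1, where the median was 3.00. Top2a, which untangles DNA in dividing cells, averaged 6.07 ± 0.33, 10.05 ± 0.38 and 7.78 ± 0.29 in T0, T1 and T8 (-2.27 (SE 0.24, adjusted p = 7.10e-07) between T1 and T8). Of 38 genes of microglia and macrophages 14 were lower than in T1 and 0 higher, including Lyz2 (-1.09 (SE 0.20, adjusted p = 5.79e-04)), Igf1 (-0.82) and Trem2 (-0.65). Lower were 6 of 10 genes assigned to macrophages, 4 of 10 of the lipid-handling and phagocytic state and 0 of 8 of resting microglia. In addition, 11 of 23 lysosomal genes were lower. Of 47 scar matrix genes 13 were lower than in T1 and 5 higher. The largest falls of all included the matricellular protein Postn at -4.35 (SE 0.42, adjusted p = 2.59e-07), the collagen modulator Cthrc1 at -4.09 (SE 0.38, adjusted p = 1.50e-07) and the metalloprotease Adam8 at -3.54 (SE 0.39, adjusted p = 1.24e-06). The imprinted RNA gene H19 (-5.13 (SE 0.49, adjusted p = 2.23e-07)), Crisp1 (-4.51), Cd300le (-2.96) and Csrp3 (-2.73) were also among the 8 largest. The small proteoglycan Ogn of the scar matrix was higher in T8 than in T1 (1.58 (SE 0.24, adjusted p = 8.84e-05)).

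Between 4 and 8 weeks 32 features differed (0.0902% of all features; limma), 31 higher (0.0874%) and 1 lower (0.00282%) in T8. That number depended on single arrays, since it was 19, 10 and 5 without T8 replicates 1, 3 and 4, 11, 3 and 5 without T4 replicates 1, 2 and 3, and 88 without T4 replicate 4. In the arrays on which both sources agree, T4 is a single array, replicate 4, so the spread there comes from the remaining groups. In that fit all 32 had the same direction, 1 was called again, and 99 of the 112 features called were lower in T8. The largest difference by far was that of Ccl21b. The 5 groups from T0 to T8, in order of time, had mean levels of 2.66 ± 0.86, 2.90 ± 0.38, 3.08 ± 0.93, 4.50 ± 1.15 and 10.64 ± 0.94 (SD, n = 4 each), and T8 differed from T4 by 6.14 (SE 0.59, adjusted p = 6.25e-06). It was well above background on no T0 or T1 array, on 3 T4 arrays and on all T8 arrays. The other feature that differed by more than 4, an unnamed transcript on no T4 array above background, is not described further. Ccl19, which shares its receptor, averaged 12.35 ± 0.57 in T2, 12.46 ± 0.36 in T4 and 13.29 ± 0.34 in T8 and was not called against T4 (adjusted p = 0.97). Slc9a2 differed from T4 by 2.35 (SE 0.32, adjusted p = 0.0023), the glycoprotein hormone subunit Gpha2 by 2.15 (SE 0.41, adjusted p = 0.037), the organic cation exporter Slc47a1 by 2.13 (SE 0.42, adjusted p = 0.047) and the prostacyclin synthase Ptgis by 1.92 (SE 0.38, adjusted p = 0.047). Of 17 genes of the circadian clock 4 were among the 32. Arntl (now Bmal1), the positive arm of the clock, was the feature that fell (-0.74 (SE 0.13, adjusted p = 0.031)), and the clock-controlled Dbp (1.13 (SE 0.22, adjusted p = 0.037)), Nr1d1 (1.80 (SE 0.34, adjusted p = 0.037)) and Nr1d2 (1.10 (SE 0.18, adjusted p = 0.014)) rose. The hour of death was not given in the sources used here, and its part was not tested. The Nogo receptor Rtn4r (0.81 (SE 0.14, adjusted p = 0.016)) and the lymphatic growth factor Vegfc (1.11 (SE 0.22, adjusted p = 0.047)) were also higher than in T4. Against T0, Rtn4r was not called at 0.11 (adjusted p = 0.58), with means of 8.70 in T0, 8.00 in T4 and 8.81 in T8. Ccl21b and Slc9a2 stayed called without any single array of T4 or T8, and each of the other genes named here lost its call without at least 4 of the 8. With T4 and T8 alone in the fit, Ccl21b differed by 6.14 with an adjusted p of 0.073, and in the arrays on which both sources agree by 6.06 with an adjusted p of 0.17 (limma).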

How the data were processed

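Total RNA of 28 rat spinal cord samples was hybridized to 1-colour Agilent arrays, 1 sample per array. The deposited log2 values were made by the authors from background-corrected signals by quantile normalization between arrays, and the deposited scanner intensity values came from Agilent Feature Extraction 10.7.1.1. Flags for signals well above background were read from the scanner output with the same rank order as each column of values (Spearman's rho of 1, at most 0.993 for the next best), which was the sample's own output for 12 of 28 samples.

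Values of 43379 non-control spots were averaged per probe (41012) and per gene name (35469 features). Group means of all 28 arrays were fitted with limma 3.58.1 (R 4.3.3), and a call is a Benjamini-Hochberg adjusted p under 0.05 over all features. The number of arrays limits the precision, and the samples are taken as separate animals from the study's methods. The fit was tested on simulated data. Probes were named through RefSeq's gene table (20713 probes matched), and 959 of 1007 members of 46 gene lists were measured. Members and lists were chosen with earlier results of these data known.

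The genes named were the 12 largest rises and falls between T8 and T0 among called features with a symbol, a signal above background on all 8 arrays and no overlap between groups, the 8 (T1) and 4 (T4) largest by the same rule, up to 8 in each direction detected in 1 group alone, and list members. Some of these genes are not reported here. A fold given as "at least" sets the bright group's mean against, on each array, the higher of the probe's own value and the lowest signal well above background. Alternatives covered the source, scaling and background correction of the values, the disputed arrays, dim probes, probes per gene, moderation, the samples fitted, slide, scan session, replicate numbers and leaving out each array. Leaving out spots marked as outliers was added after seeing the data. Normexp used the median signal, as 20 outputs hold no mean signal. Arrays with the same scan date in the outputs' headers were taken as 1 scan session. Promoter windows came from RefSeq (GRCr8).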

Additional observations from a re-analysis of the deposited data

Results flagged for a closer look

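One of the 4 arrays of a group stood apart from the other 3, by more than Dixon's 95% critical value for the gap as a share of the group's range, in 31 of 452 sets of T0 or T8 values of the 226 genes named in the text. Chance flags about 1 in 20 such groups. In T0 the highest array lay apart for Sostdc1 (replicate 1, 7.25), Msr1 (replicate 2, 3.88), Lilrb4 (replicate 3, 3.40), Calca (replicate 1, 11.34), C1r (replicate 2, 9.90), Cd3g (replicate 1, 6.51), Tnc (replicate 2, 5.80), Cldn5 (replicate 4, 13.91) and Ogn (replicate 3, 11.84). In T0 the lowest array lay apart for Ccl21b (replicate 4, 1.38), Neurod1 (replicate 2, 4.57), Nefm (replicate 3, 17.56), Kcna4 (replicate 4, 9.13), Lgals3 (replicate 4, 13.88), Irf7 (replicate 4, 9.92), Adcy8 (replicate 4, 11.92), Fos (replicate 1, 9.64), Cdh1 (replicate 1, 2.97) and Cthrc1 (replicate 2, 7.51). In T8 the highest array lay apart for Lyzl4 (replicate 3, 5.51), Psgb1 (replicate 2, 2.44), Prx (replicate 3, 11.78), Cd46 (replicate 2, 6.85), Cldn5 (replicate 4, 13.82), Igfbp2 (replicate 3, 13.98) and Insig1 (replicate 3, 10.58). In T8 the lowest array lay apart for Tac1 (replicate 1, 11.18), Kcnc1 (replicate 2, 8.39), Cspg4 (replicate 4, 13.82), Cxcl13 (replicate 2, 7.86) and Rtn4 (replicate 4, 12.69). The widest gap concerned Cxcl13, a chemokine that attracts B cells, whose other T8 values were 10.82, 10.97 and 11.24. Its call was lost in the arrays on which both sources agree, which hold T8 replicate 2, at 2.67. 

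The change from T0 differed between 8 weeks and 1 week for 3501 features and between 8 and 4 weeks for 32, by limma's test of the difference between the groups of injured animals. Among the genes chosen by size, the difference between T8 and T1 was positive for Lect1 (4.68), Slc9a2 (4.05), Cdh1 (3.87), Serpinb10 (3.56), Calml4 (3.50), Prx (3.41) and Cela3b (3.30) on the log2 scale. It was negative for H19 (-5.13), Crisp1 (-4.51), Postn (-4.35), Cthrc1 (-4.09), Adam8 (-3.54), Cd300le (-2.96) and Csrp3 (-2.73).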

How the results depend on the processing

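Between T8 and T0, 13314 to 16603 features were called under the scanner signals, the arrays without dispute, other scalings, other samples in the fit, moderation, blocks for slide or session and other treatments of probes, 12144 and 12318 within the scan sessions, and 12720 to 13748 without 1 array. A change of at least 2-fold left 6538, and the scanner outputs as deposited 0. Between T8 and T1 a 2-fold change left 1261, the arrays without dispute 1363, scan session 1 alone 533 and the outputs as deposited 0, and leaving out 1 array gave 2569 to 3397. Between T8 and T4 the count was 120 with normexp, 112 in the arrays without dispute, 55 without dim probes, 2 with the 2 groups alone, 49 with the time course alone, 20 and 59 with slide as a fixed and random block, 57 with session as a block, 50 and 6 within sessions 1 and 2, 25 at 2-fold, 0 as deposited, and 3 to 88 without 1 array. Both the arrays without dispute and session 1 hold 1 array of T1 and 1 of T4, assumed to vary like the other groups. Sessions 1 and 2 together split T8 and T0 evenly. From T0 to T8 the arrays without dispute were those of session 1 and the disputed arrays those of session 2. These settings therefore do not separate dispute from session. With the replicate number as a block, the counts were 9596, 822 and 0 for T8 against T0, T1 and T4 (2591 of the last at an unadjusted p under 0.05), but in no comparison did every pair of same-numbered arrays deviate together (r from -0.25 to -0.18 with T0, -0.24 to 0.20 with T1 and -0.18 to 0.29 with T4), so the numbers were not used as pairs. Of 6049 values of 242 results for named genes under the alternatives, 411 lost their call, 206 of them under the outputs as deposited, and 21 gained one. The outputs as deposited reversed Gzma against T0 (0.052) and, against T1, Top2a (0.047), Lyz2 (0.71), Igf1 (0.30), Trem2 (0.60) and Cd300le (0.39), and the median of the proteoglycan list (-0.037). In the arrays without dispute, 9 of 174 named calls against T0 were lost (Hapln1, Neurod1, Gap43, Sox10, Gzma, Cxcl13, Ccr7, C9 and Il1b), 1 of 27 against T1 and 11 of 11 against T4, none of them changed sign, P2ry12, C3 and Prf1 were called higher in T8 than in T0 and Arg1 lower. No list median changed sign in the arrays without dispute, and the largest shift was 0.55, for MHC class II. The cause of these differences was not tested. Dim genes are limited by background, since 5228 features were well above it on no array of T0 or T8.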

Other observations

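Cdh1, the epithelial cadherin, had the largest difference between T8 and T0 of all 35469 features, but lay outside the genes chosen by size because 1 T0 array was not well above background. Its levels were 2.97, 4.43, 4.19 and 4.44 in T0 and 12.99, 12.29, 12.90 and 13.03 in T8, a change of 8.80 (SE 0.62, adjusted p = 1.20e-10), and it was singled out after its values were seen. Of 17 genes of the circadian clock, 5 were higher and 2 lower in T8 than in T0, close to the 39.7% of all features that were called. Bhlhe40, a repressor that light and hypoxia induce, rose by 1.32 (SE 0.19, adjusted p = 4.97e-06) and Per1 by 0.84 (SE 0.34, adjusted p = 0.05), and Cry1 was lower at -0.62 (SE 0.20, adjusted p = 0.017). The clock genes Clock (0.21) and Per2 (0.31) were not called.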
